A study of Mus musculus with 6 samples.

Results

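The genes described here are named as proteins of the mitochondrial ribosome. Their mRNA was compared between calorie-restricted (CR) and ad libitum fed (AL) mice in ventricular myocardium at 3 ages. Members were all non-control array probes whose gene symbol begins with Mrpl or Mrps followed by a digit. The rule gave 100 of 39429 probes, which belong to 78 of the 32451 genes and unnamed transcripts on the array. Of the 78 genes, 51 were counted with the large subunit, Mrps30 and Mrps18a among them, and 27 with the small subunit. Apart from Mrps30 and Mrps18a, this count follows the gene names. The scanner tables name probes by accession, so symbols were taken from a RefSeq gene table.

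Mitochondrial ribosomes translate the few mRNAs of mitochondrial DNA, all of which encode core subunits of oxidative phosphorylation. Their RNAs are made in the organelle, whereas all of their proteins are encoded in the nucleus, made on cytosolic ribosomes and imported. Some of these proteins have a counterpart in bacterial ribosomes and others occur only in mitochondria, and inherited defects of several of them, for example MRPL3, MRPL44 and MRPS22, cause cardiomyopathy.

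Male C57BL/6J mice entered the study at 3, 12 or 19 months of age, were caged individually and either stayed on AL feeding or went on CR for 12 weeks, with food cut by 10% in the first week, by 25% in the second and by 40% for the last 10 weeks. Hearts were taken at 6 (young), 15 (middle-aged) and 22 months (old). Mixed ventricular tissue of each of the 6 groups was pooled and hybridised to 1 single-dye Agilent array, so each group is 1 sample, the spread between mice was not measured, and no test can be made at a single age. A level is given as log2 of the processed signal over the 75th percentile of its array, and a CR difference as the CR level less the AL level. The differences were also read against the median difference of all genes measured at that age, which was 0.08 at 6 months, 0.09 at 15 months and 0.11 at 22 months. In pooled tissue, fewer cells of a type and less RNA per cell cannot be told apart.

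The 2 young arrays stood apart from the other 4. Over 11365 probes well above background on all 6 arrays they correlated with each other at r = 0.984 and with the middle-aged and old arrays at only 0.382 to 0.483. Over the 63 member probes among them, the correlation was 0.938 within the young pair, 0.04 to 0.182 between a young and another array, and 0.972 to 0.993 among the other 4. Both were also dim, with a 75th percentile of 29.3 (AL) and 23.1 (CR) signal units against 199 to 381 on the other arrays, and 71 and 66 of the 100 member probes were well above background on them against 96 to 98. Levels at 6 months are therefore not set against those at other ages, and only the difference within the pair is used. The young arrays share a scan with the middle-aged arrays, and the old arrays were scanned apart. The cause of this split was not tested.

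In young mice, most members were lower with CR (the strip plot by age and subunit). Of the 78 genes, 55 had a probe well above background in both young pools. Their median CR difference was -0.19, or -0.27 after subtraction of the all-gene median, with differences from -1.56 to 0.55. Only 8 of the 55 lay above the all-gene median, against a background of 50% of the genes measured at that age. The count was 13 of 55 with a model-based background correction (normexp, with an offset of 50 signal units), under which the relative median was -0.08.

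**Figure D1:**
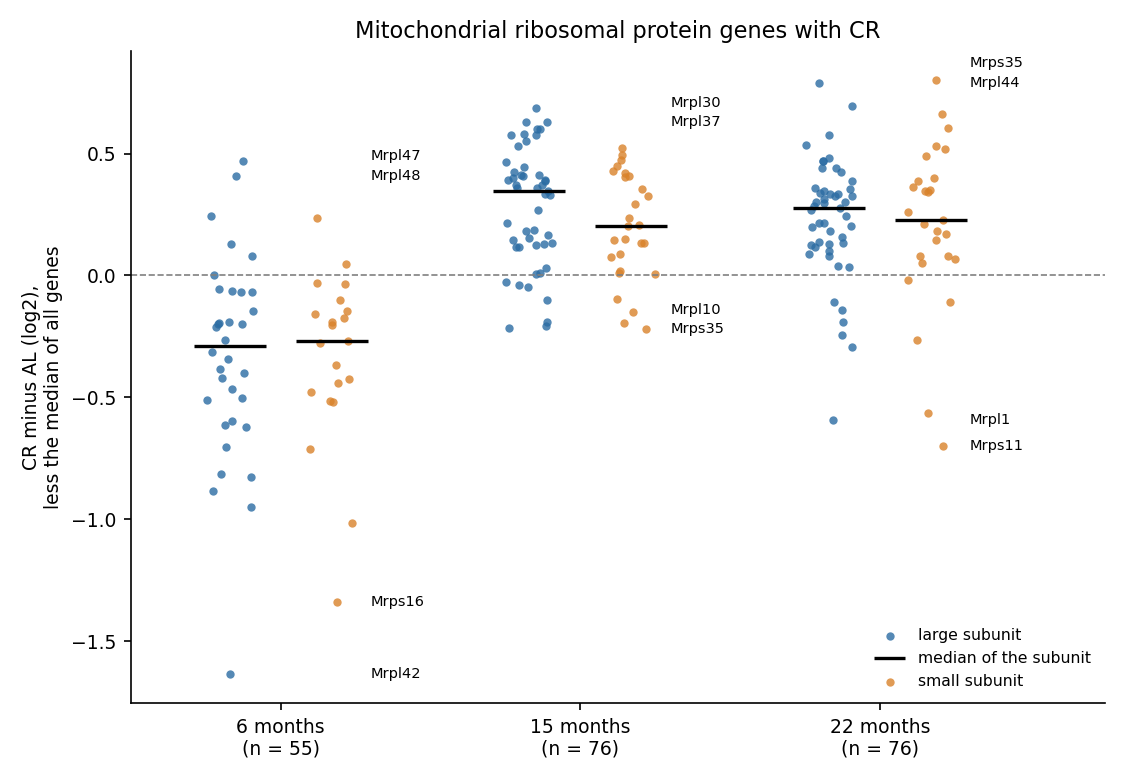
CR minus AL difference of each measured member (log2, less the median difference of all genes) at 6, 15 and 22 months, with large-subunit genes in blue, small-subunit genes in orange and black bars at the median of each subunit. The members lie mostly below the dashed zero line at 6 months (47 of 55) and mostly above it at 15 and 22 months (65 of 76 each), and the 2 lowest and 2 highest genes of each age are named.

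Mrpl42, which encodes a large-subunit protein specific to mitochondria, had a level of 2.13 in the young AL pool and 0.58 in the young CR pool. Its CR difference was -1.56, a 2.94-fold lower level, with a spot error of 0.20. The spot error is the standard deviation of a difference that probes printed several times on these arrays give, and covers printing and scanning of 1 pool only. In the other 4 pools the same probe went the opposite way, from 0.27 (AL) to 0.75 (CR) at 15 months and from -0.29 to 0.16 at 22 months. Mrps16, the counterpart of a bacterial small-subunit protein, had levels of 1.39 (AL) and 0.13 (CR) at 6 months. This was 2.40-fold lower with CR (difference -1.26, spot error 0.21). At 15 months its levels were 3.71 (AL) and 4.12 (CR), and at 22 months 3.67 and 4.13. Mrpl42 and Mrps16 were the only members that were at least 2-fold lower in young CR mice, 2 of 55 against a background of 1.15% of genes. No member was at least 2-fold higher, against a background of 1.58%.

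The next 3 in order at 6 months were Mrps21, Mrpl55 and Mrpl13. Mrps21, a small-subunit protein with a bacterial counterpart, had levels of 1.15 (AL) and 0.21 (CR), 1.92-fold lower. Mrpl55, a large-subunit protein found only in mitochondria, had levels of 2.10 and 1.22, 1.83-fold lower. Mrpl13, the counterpart of a bacterial large-subunit protein, had levels of 0.72 and -0.09, 1.75-fold lower. All 3 had higher levels with CR at both later ages, with differences of 0.44 to 0.60. Relative to the all-gene median, 12 of 55 members were at least 1.5-fold lower at 6 months, against a background of 7.33%, and 0 were at least 1.5-fold higher, against 5.88%.

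Few members had higher levels in young CR mice. Mrpl47 was measured by 1 of its 2 probes and had levels of -0.42 (AL) and 0.13 (CR), a difference of 0.55. Mrpl48 had -0.48 and 0.01, a difference of 0.49. Mrpl19 (0.32), Mrps27 (0.31), which carries pentatricopeptide repeats, and Mrpl32 (0.21), which is cleaved by a mitochondrial protease before assembly, followed. None of the 55 members lay more than 2 spot errors above the all-gene median. Below it by more than 2 spot errors lay 21 of the 55. The share of all genes past 2 spot errors was not computed, so these counts have no background.

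For a further 6 members the difference at 6 months has only a bound, because the AL pool alone gave a signal well above background. Mrpl18, the counterpart of a bacterial protein that binds the ribosomal RNA of the central protuberance, was at least 2.48-fold lower with CR, with a measured level of 0.59 in AL and -0.94 in CR, the latter not well above background. The other 5 were Mrpl37 and Mrps24 (each at least 1.43-fold lower), Mrpl50 (1.19), Mrpl16 (1.17) and Mrpl57 (1.09). Mrpl15 was measured by different probes in the 2 pools, and 16 members, among them Mrpl3 and Mrpl44, were not well above background in either. No member was above background only in the young CR pool.

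In middle-aged mice, most members were higher with CR. Of the 78 genes, 76 were measured, Mrpl35 was above background in the AL pool alone (at least 1.13-fold lower with CR) and Mrpl21 in neither. The median CR difference of the 76 was 0.37 (0.28 relative to all genes), and the differences ran from -0.13 to 0.77. Of the 76, 65 lay above the all-gene median (background 50%). Of the 65, 45 did so by more than 2 spot errors, a share not computed for all genes. The size of this shift depended on the normalisation. The relative median was 0.15 with quantile normalisation (60 of 76 above), 0.13 with loess within the pair (60), 0.15 in the deposited table (60) and 0.08 with normexp (50).

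Mrpl30, the counterpart of a bacterial large-subunit protein, had levels of 2.39 (AL) and 3.16 (CR) at 15 months, 1.71-fold higher with a spot error of 0.10. Mrpl37, a large-subunit protein specific to mitochondria, had 0.88 and 1.59, 1.64-fold higher. Mrpl33, also with a bacterial counterpart, had 4.87 and 5.59, again 1.64-fold higher. Mrpl2, which lies next to the catalytic centre of the ribosome, was 1.61-fold higher, with levels of 3.68 and 4.37. Mrpl44, a protein with a ribonuclease-like fold, was also 1.61-fold higher (0.50 and 1.19). These 5 are all proteins of the large subunit, as are 49 of the 76 members measured at 15 months. No member was 2-fold higher or lower at 15 months, where 2.16% of genes were at least 2-fold higher and 2.62% lower. Relative to all genes, 5 of 76 members were at least 1.5-fold higher and 0 lower, against backgrounds of 6.8% and 11.5%.

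At the low end at 15 months stood Mrps35, with levels of 0.98 (AL) and 0.85 (CR). Mrpl10 had -0.47 and -0.60, and Mrpl15 had -0.58 and -0.70. The 2 probes of Mrpl10 disagreed in sign (-0.37 and 0.11), as did those of Mrpl15 (-0.41 and 0.17). Mrpl10 builds the base of the ribosomal stalk on which the translation factors act. Mrps22, a small-subunit protein found only in mitochondria, had 0.77 and 0.66, and Mrpl1 had -0.60 and -0.70. These 5 differences lay between -0.13 and -0.11, and only that of Mrps35, whose probe is printed 10 times, was clear of 0 by more than 2 spot errors (spot error 0.03).

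In old mice the members were again mostly higher with CR. All but Mrpl21 and Mrpl35, 76 genes, were measured, with a median CR difference of 0.38 (0.27 relative to all genes) and a range from -0.59 to 0.91. As at 15 months, 65 of 76 lay above the all-gene median (background 50%). Of the 65, 41 did so by more than 2 spot errors, a share not computed for all genes. The relative median stayed between 0.19 and 0.28 under the 9 alternative treatments of the arrays.

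Mrps35, a small-subunit protein specific to mitochondria, had levels of -0.06 (AL) and 0.85 (CR) at 22 months, 1.88-fold higher with a spot error of 0.03. Its probe is printed 10 times, and it was the AL pool that was low here, whereas at 15 months the CR pool was the lower one. Mrpl44 had 0.12 and 1.02, 1.87-fold higher. Mrpl12, the stalk protein that also binds the mitochondrial RNA polymerase, had 1.29 and 2.09, 1.75-fold higher. At the younger ages Mrpl12 had hardly differed, with 2.91 and 2.79 at 6 months and 2.20 and 2.24 at 15 months. Mrps17 was 1.71-fold higher (0.00 and 0.78), and both of its probes gave this within 0.08. Mrps12, which sits at the decoding centre, was 1.65-fold higher (0.46 and 1.18).

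A few members were lower in old CR mice. Mrps11, the counterpart of a bacterial small-subunit protein, had levels of 0.01 (AL) and -0.58 (CR), 1.5-fold lower. Mrpl1, which belongs to the stalk at the exit side of the large subunit, had 0.56 and 0.08, 1.40-fold lower. Mrps22 had 1.42 and 0.97, 1.37-fold lower. Next came Mrpl22, at the wall of the exit tunnel, and Mrps23, a small-subunit protein of mitochondria, with differences of -0.18 and -0.15, but the 2 probes of each gene disagreed in sign. The probes of Mrpl22 gave -0.88 and 0.52, and those of Mrps23 gave -0.62 and 0.31. No member was 2-fold higher or lower, against backgrounds of 1.9% and 3.99%. Relative to all genes, 5 of 76 were at least 1.5-fold higher and 2 lower, against 5.27% and 11.1%.

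**Figure D2:**
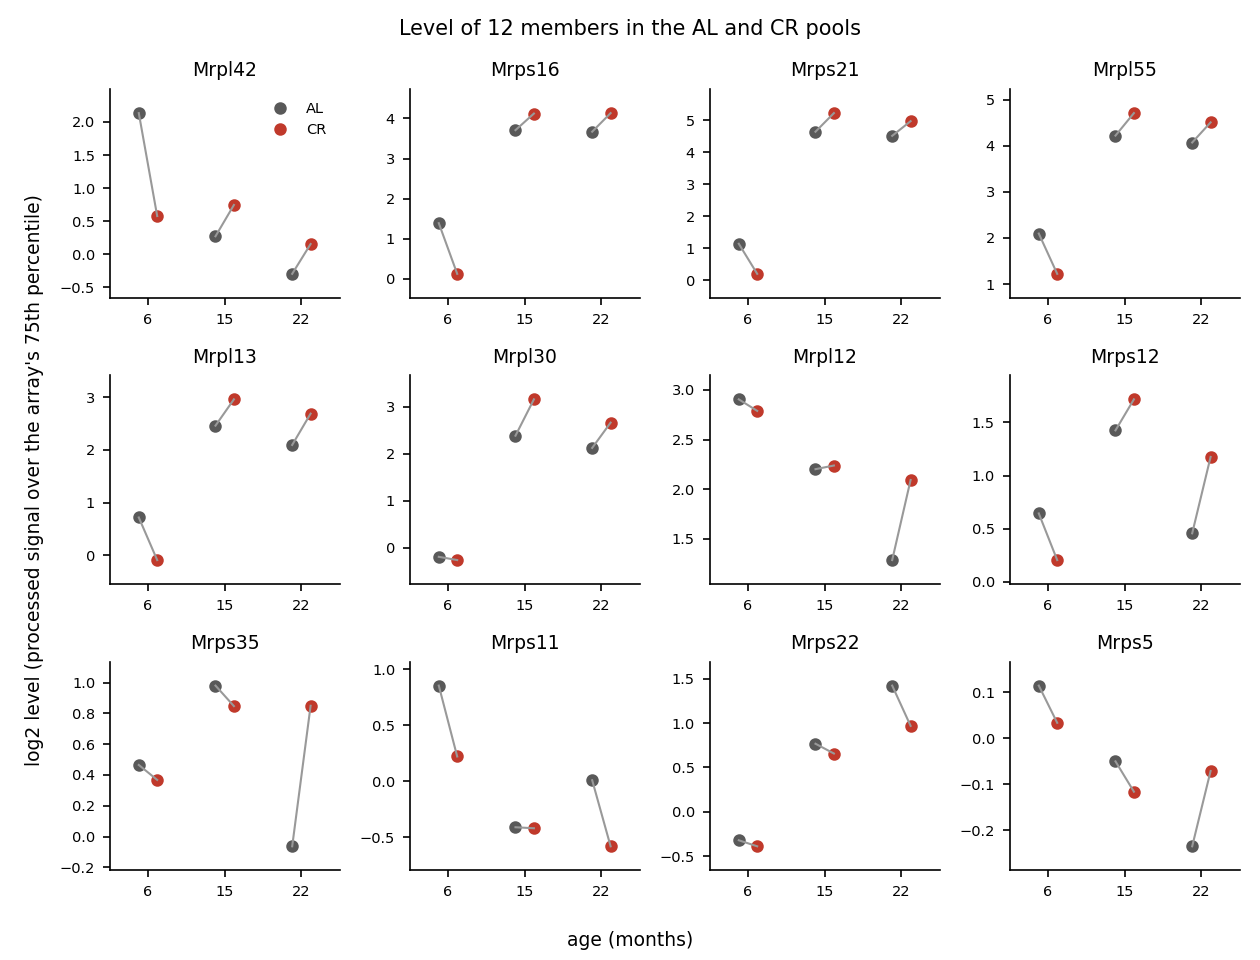
Level (log2 of the processed signal over the array's 75th percentile) of 12 members in the AL (grey) and CR (red) pools at 6, 15 and 22 months, 1 point for each pool and a line joining the 2 pools of an age, with a separate vertical scale for each gene. Mrpl42, Mrps16, Mrps21, Mrpl55 and Mrpl13 slope down at 6 months and up at the later ages, Mrps35 slopes steeply up only at 22 months, and Mrps11 and Mrps22 slope down at all 3 ages.

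Across the ages, the commonest pattern was a lower level with CR in young and a higher level in middle-aged and old mice, relative to all genes. Of the 55 members measured at all 3 ages, 36 had it, against a background of 18.4% of the 10222 genes measured at all ages. The opposite pattern was found in 0 of the 55. The share of all genes was not tabulated for this pattern, nor for genes above or below the median at all 3 ages. Above the all-gene median at all 3 ages lay 7 members, Mrpl4, Mrpl19, Mrpl32, Mrpl47, Mrpl48, Mrps7 and Mrps27. Below it at all 3 lay Mrpl10, Mrps11 and Mrps22. Mrpl10 was measured by 1 of its 2 probes at 6 months, and its 2 probes disagreed in sign at 15 months. So did the 2 probes of Mrpl4 at 6 months and those of Mrps7 at 15 months. Of the 76 members measured at 15 and 22 months, 59 lay above the median at both ages (background 28.7%). Below it at both lay 5, a share not computed for all genes. The CR comparisons of the 3 ages share no array.

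**Figure D3:**
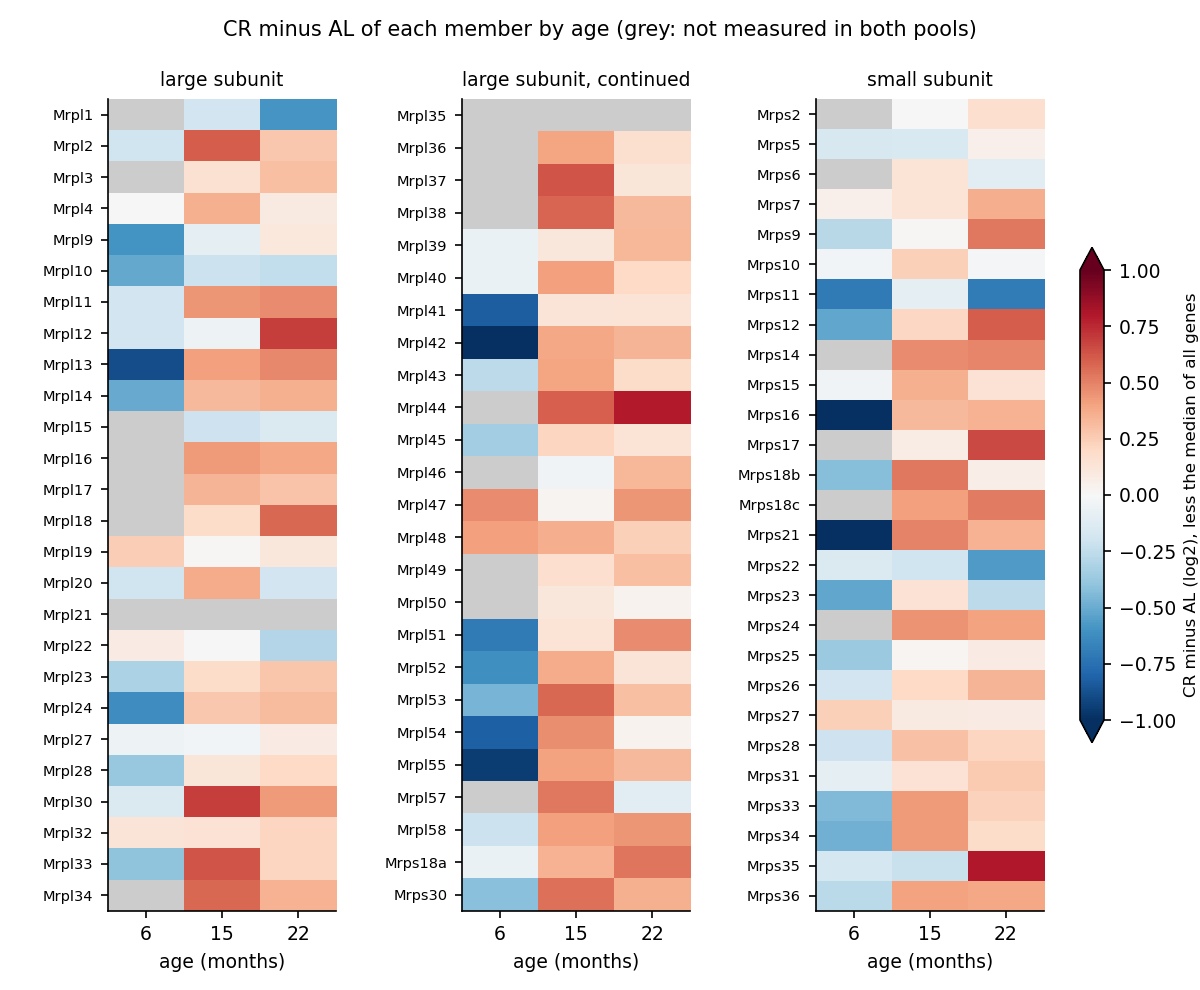
CR minus AL difference (log2, less the median difference of all genes) of all 78 members at 6, 15 and 22 months, with large-subunit genes in the left and middle panels and small-subunit genes in the right panel. Blue is lower and red higher with CR, colours saturate at 1 on the log2 scale, and grey marks a gene that was not measured in both pools. The 6-month column is mostly blue or grey, the other 2 are mostly red, and Mrpl21 and Mrpl35 are grey throughout.

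The order of the members was also compared between ages. Across members, the CR difference at 6 months had a Pearson correlation of -0.22 with that at 15 months and of -0.03 with that at 22 months (55 genes), and the differences at 15 and 22 months had one of 0.34 (76 genes). Over all genes the corresponding values were -0.11, -0.16 and 0.28. These are correlations across genes, which share the arrays and are not replicates. The shift was found in both subunits. The relative median of the large subunit was -0.29 at 6 months, 0.35 at 15 months and 0.28 at 22 months, and that of the small subunit was -0.27, 0.20 and 0.23. The 43 members with a bacterial counterpart had relative medians of -0.20, 0.21 and 0.28, and 29 members specific to mitochondria had -0.36, 0.21 and 0.23.

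At 15 months, all bright genes tended to be higher with CR. Genes were split by level into 4 bins of equal size. In the brightest bin the relative median of all genes was 0.18, and the 43 members in this bin had a relative median of 0.40, with 41 of them above the all-gene median. In the second brightest bin it was -0.02 for all genes and 0.12 for 29 members. At 22 months the brightest bin had a relative median of 0.03 and its 45 members one of 0.30. At 6 months the corresponding values were 0.01 for all genes and -0.03 for 3 members, and in the next 2 bins the medians of 13 and 21 members were -0.40 and -0.43 against -0.05 and -0.03 for all genes. The part of brightness in the shift at 15 months was not tested further.

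Members with 2 probes agreed to different degrees. At 22 months, 21 members had 2 probes above background in both pools, with a median distance of 0.25 between their CR differences. Those of Mrpl50 lay 1.58 apart (-0.64 and 0.94) and those of Mrpl22 1.40 apart. At 15 months, 20 members had 2 such probes, at a median distance of 0.51, and 1 of them, Mrps23, was over 2-fold apart (0.82 and -0.35). This distance is wider than the members' median CR difference of 0.37 at that age. The signs of the 2 probes differed for Mrpl10, Mrpl15, Mrpl22, Mrpl27, Mrpl39, Mrpl41, Mrpl50, Mrps2, Mrps7, Mrps23 and Mrps25. At 22 months they differed for Mrpl15, Mrpl22, Mrpl27, Mrpl50, Mrps18b and Mrps23. At 6 months, none of the 9 members with 2 probes was 2-fold apart, but the signs differed for Mrpl4, Mrpl22, Mrpl27, Mrpl40, Mrps7 and Mrps26.

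Members that have been singled out in earlier work on lifespan or heart disease moved to different extents. Mrps5, whose knockdown prolongs the life of worms, had levels of 0.12 (AL) and 0.03 (CR) at 6 months, -0.05 and -0.12 at 15 months and -0.24 and -0.07 at 22 months. None of its 3 differences reached 2 spot errors. Mrpl3, which lies near the catalytic centre, had 2.24 and 2.48 at 15 months and 1.65 and 2.07 at 22 months, 1.18- and 1.33-fold higher with CR. Mrps34, a small-subunit protein of mitochondria, was 1.32-fold lower at 6 months (0.99 and 0.59), and 1.43- and 1.23-fold higher at the later ages. Mrps30 had differences of -0.34, 0.64 and 0.47. Mrpl41, measured by 1 of its 2 probes at 6 months, was 1.68-fold lower there (0.53 and -0.22), and 1.16- and 1.19-fold higher at 15 and 22 months. At 15 months its 2 probes disagreed in sign (0.54 and -0.11). Its second probe was not above background at 6 months, and without the filter on dim probes the mean of both gave 0.20 there.

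Of the 5 ribosomal proteins that carry other names, 4 were lower in young and higher in older CR mice. Chchd1 had differences of -0.94, 0.76 and 0.77 at 6, 15 and 22 months, Ptcd3 of -0.74, 0.72 and 0.56, Dap3 of -0.51, 0.34 and 0.39, and Aurkaip1 of -0.13, 0.54 and 0.33. Gadd45gip1 was higher at each age, at 0.69, 0.61 and 0.34. All 5 lay above the all-gene median at both later ages.

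The factors that build the mitochondrial ribosome and work with it were measured on the same arrays. Of 15 translation factors, 7 were measured at 6 months, 3 of them above the all-gene median, with a relative median of 0.00. At 15 and 22 months all 15 were measured and 11 and 14 lay above it, with relative medians of 0.14 and 0.32. The elongation factor Tufm had differences of -0.19, 0.39 and 0.57, and Gfm1, the translocase, had 0.68 and 0.48 at the later ages. The activator Taco1 and the inner-membrane insertase Oxa1l were highest at 22 months, at 0.69 and 0.66. Of 22 assembly factors, 12 of 21 measured lay above the median at 15 months and 15 of 21 at 22 months, with relative medians of 0.12 and 0.15, and at 6 months 4 of 9. Trub2 and Rbfa were highest at 22 months (0.93 and 0.86), and the helicase Dhx30 was lowest (-0.58). Of 18 mitochondrial aminoacyl-tRNA synthetases and related enzymes, which charge the tRNAs, 2 of 5 measured lay above the median in the young pools, 7 of 16 at 15 months and 13 of 16 at 22. Fars2 was over 2-fold lower in young CR mice (-1.17) and had differences of 0.55 and 0.57 later. Of 13 genes of mitochondrial transcription and DNA upkeep, 4 of 5 measured were on the upper side in the young pools (relative median 0.18), 3 of 13 at 15 months (-0.12) and 10 of 13 at 22 (0.10). Among them, the elongation factor Tefm had 0.06 at 15 months and 1.42 at 22 months, the polymerase Polrmt had 0.26, 0.62 and 0.36, and the packaging factor Tfam had -0.33, -0.35 and 0.15.

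**Figure D4:**
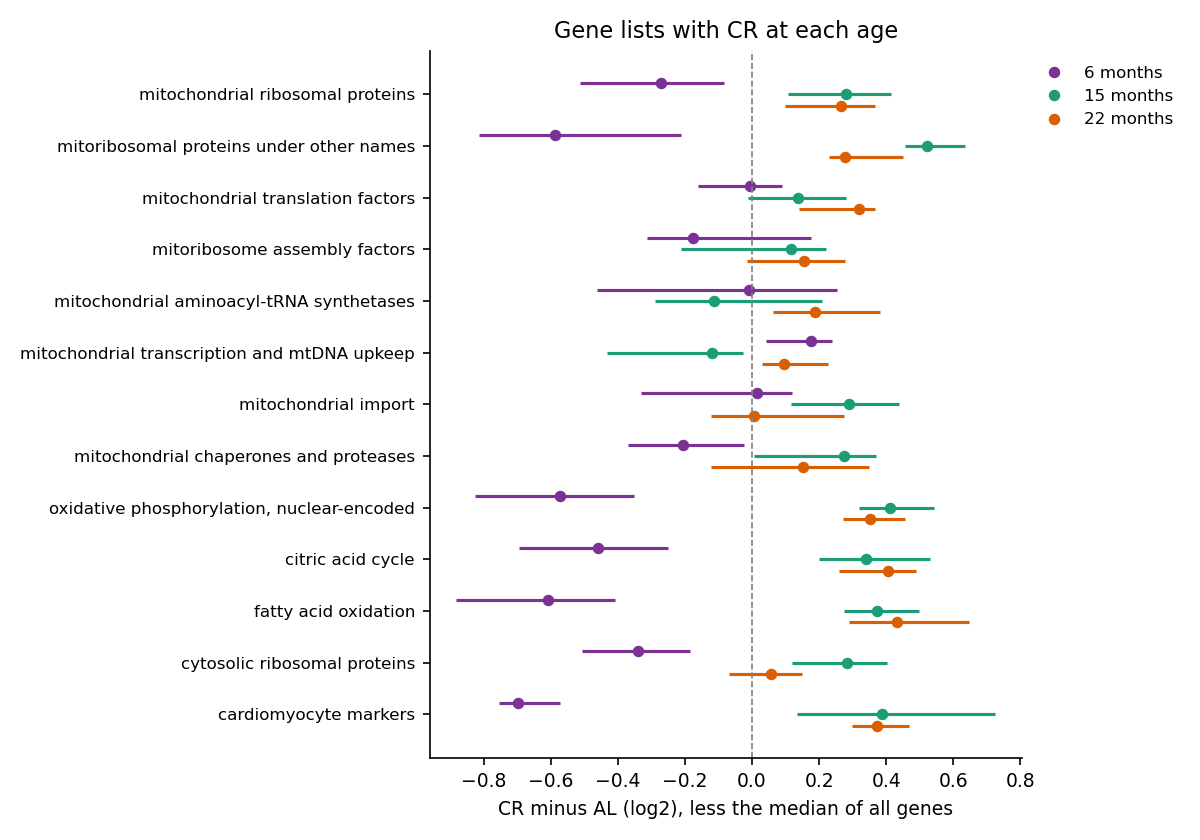
Median (point) and range from the 25th to the 75th percentile (line) of the CR minus AL difference (log2, less the median difference of all genes) of each gene list at 6 (purple), 15 (green) and 22 months (orange), over the genes measured at that age. The mitochondrial ribosomal proteins lie at -0.27, 0.28 and 0.27, nuclear-encoded oxidative phosphorylation and cardiomyocyte markers lie further out on the same sides, and the lists of translation factors, synthetases and import lie near 0 at 6 months.

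The regulators of mitochondrial genes showed no common direction, with relative medians of 0.15, 0.06 and 0.05 over 13, 19 and 19 genes. Ppargc1a, the coactivator of mitochondrial biogenesis, had differences of 0.06, 0.00 and 0.93 at 6, 15 and 22 months. Its partner Esrra had -0.59, 0.33 and 0.36. Nrf1, a factor that binds promoters of many mitochondrial genes, had levels of 4.66 (AL) and 7.92 (CR) at 6 months, a difference of 3.26 on 1 probe, and differences of 0.21 and -0.15 later on 2 probes. Yy1 had 0.48, 0.28 and 0.04, and Gabpa, not measured at 6 months, had -0.39 and -0.20.

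Several other lists lay on the same side of the all-gene median as the members. The 78 nuclear-encoded subunits of oxidative phosphorylation had relative medians of -0.57, 0.41 and 0.35, with 2 of 77, 76 of 78 and 77 of 78 above the all-gene median. The cytosolic ribosomal proteins had -0.34 and 0.28 at 6 and 15 months and 0.06 at 22 months, where 52 of 78 lay above the median. The 12 cardiomyocyte markers had relative medians of -0.70, 0.39 and 0.37, with 0, 10 and 12 of them above the median. They were all measured in every pool. Of 5 atrial markers, 2, 3 and 3 were measured at 6, 15 and 22 months. Of these, 2, 2 and 3 lay above the all-gene median, with relative medians of 0.34, 0.03 and 0.39. The endothelial markers had 2 of 6, 3 of 8 and 1 of 8 above it, with relative medians of -0.41, -0.095 and -0.10. Of markers of other cells, 5 platelet markers were lower with CR at 15 months, with differences from -6.93 to -3.64, 3 of 4 measured erythroid markers were at least 2-fold lower there, and the fibroblast markers had 2 of 5 above the all-gene median in the young pools (relative median -0.17), 6 of 9 at 15 months (relative median 0.43, 2 of them at least 2-fold higher) and 0 of 8 at 22 months (-0.62). Of the proliferation markers, 1 was measured at 6 months and lay above the median, 5 of 7 lay above it at 15 months (relative median 0.45) and 0 of 7 at 22 months (-1.06). The part of these shifts in the members' differences was not tested. None of the 13 listed mRNAs of mitochondrial DNA, which the mitochondrial ribosome translates, was matched to a probe, so they have no values here.

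Between the later ages within a diet, the members were lower at 22 than at 15 months in both. The median difference was -0.17 in AL mice (-0.21 relative to all genes, 58 of 76 below the all-gene median) and -0.20 in CR mice (-0.14 relative, 57 of 76 below). The arrays of these ages were scanned apart, so age and scan cannot be told apart in these values, whereas the arrays of each CR comparison share a scan.

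The promoters of the members were read from RefSeq (GRCm38.p6) to show what the genes hold in common, and 69 of the 78 genes matched, with 75 starts. In the window from 250 bases before to 50 bases after the start, both strands were searched for 6 motifs. The ETS motif CCGGAAG, which GABPA binds, was found in 26 of 75 member windows (34.7%) and in 11.6% of the 21263 windows of protein-coding genes. The NRF1 motif GCGCANGCG was found in 16 (21.3%, against 8.58%) and the YY1 motif AAGATGGC in 12 (16%, against 3.05%). At least 1 of these 3 was present in 44 of the 69 genes. The CCAAT box (CCAAT) was found in 40.0% of member windows and 38.2% of all, the CRE (TGACGTCA) in 2.67% and 2.23%, and the E-box (CACGTG) in 9.33% and 7.84%. A match describes the letters of the window and is no evidence of binding.

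The 110 bases before the start are shown for Mrpl42, which had the largest difference of all members, for Mrpl12 and Mrps22, which differed in opposite directions at 22 months, and for Mrpl3, on the plus strand for Mrpl12 and Mrpl3 and on the minus strand for the others. Capitals mark an NRF1 match in Mrpl12, which begins 80 bases before the start, and an ETS match in Mrps22 (11 bases before) and Mrpl3 (19 bases before). In Mrpl42 none of the 3 motifs lies in this stretch.
Mrpl42, chr10:95501950-95502059: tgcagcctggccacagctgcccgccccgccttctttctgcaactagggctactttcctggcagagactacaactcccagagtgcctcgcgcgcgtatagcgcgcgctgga
Mrpl12, chr11:120484527-120484636: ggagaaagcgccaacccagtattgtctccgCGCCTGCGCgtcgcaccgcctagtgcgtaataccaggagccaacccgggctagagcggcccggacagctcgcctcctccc
Mrps22, chr9:98601680-98601789: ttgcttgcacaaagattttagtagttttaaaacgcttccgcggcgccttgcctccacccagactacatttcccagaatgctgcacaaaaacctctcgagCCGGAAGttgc
Mrpl3, chr9:105053158-105053267: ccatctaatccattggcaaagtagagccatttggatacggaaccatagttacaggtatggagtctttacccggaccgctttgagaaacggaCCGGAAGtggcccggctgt

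The CR differences of members with and without these motifs were set side by side. With the ETS motif, the relative medians were -0.40 (19 genes), 0.35 (25) and 0.28 (25) at 6, 15 and 22 months, and without it -0.27 (29), 0.18 (42) and 0.27 (42). With the NRF1 motif they were -0.28 (13), 0.21 (16) and 0.31 (16), and without it -0.27 (35), 0.27 (51) and 0.27 (51). The widest gap was at 6 months for the YY1 motif, with -0.07 over 7 genes that have it and -0.28 over 41 that do not. No test was made of these splits.

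The ages were the only replication in the series. A linear model with age and diet, fitted with limma over 22470 genes, tested a CR effect shared by the 3 ages. It called 0 genes after Benjamini-Hochberg adjustment (0.0%), and 0 of the 76 members fitted. At an unadjusted p under 0.05 were 1087 of all genes, 776 of them higher with CR, and 3 members, all higher with CR. The 3 members were Mrpl38 (0.63 ± 0.19 SE), Mrpl17 (0.67 ± 0.24) and Mrpl44 (0.62 ± 0.21). Each had a limma adjusted p of 0.81 and was well above background only in the 4 older pools. Without the 6-month pools, 10 of the 76 members were under 0.05 beside 2372 of all 22470 genes, 929 of these 2372 higher with CR. The 10 members were all higher with CR, led by Mrpl44 (0.79 ± 0.21 SE, adjusted p = 0.367 by limma), and again none passed the adjustment.

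A second limma contrast compared the CR effect at 6 months with its mean at 15 and 22 months, on 1 residual degree of freedom. The model fits the 6-month pair exactly, so this degree of freedom holds only the difference between the 15- and 22-month effects. The SE and p-values therefore hold no error of the young pools. The median spot error of the members was 0.21 at 6 months, against 0.10 and 0.13 at 15 and 22 months. The median contrast was -0.53 over the members and 0.11 over all genes. It also called 0 genes (0.0%), with 3215 under an unadjusted p of 0.05, and 0 members, with 17 under 0.05, all in the direction of a lower young effect. Mrpl42 had a contrast of -2.02 ± 0.35 (SE) and Mrps16 one of -1.70 ± 0.35, each with a limma adjusted p of 0.231, and Mrps21 one of -1.46 ± 0.35 (0.235). This call depended on the normalisation. With quantile normalisation 860 genes (3.83%) and 8 members passed at 0.05, 7 of them with a lower and 1, Mrpl17, with a higher young effect, and in the deposited values 669 genes and 8 members passed, all with a lower young effect. In both, Mrpl42 was the only one of the members called that was well above background in all 6 pools (adjusted p = 0.0494 and 0.0484 by limma), and the others, such as Mrpl3, Mrpl16, Mrpl18, Mrpl37 and Mrpl50, rested on a young level at or below background in at least 1 pool.

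**Figure D5:**
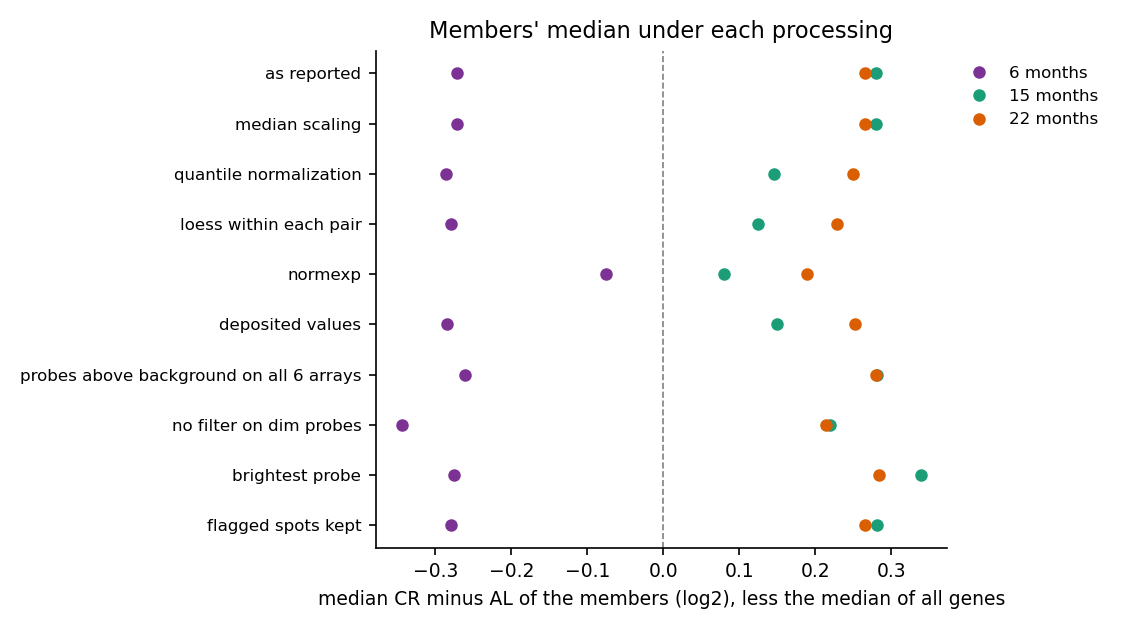
Median CR minus AL difference of the members (log2, less the median difference of all genes) at 6 (purple), 15 (green) and 22 months (orange), as reported and under 9 alternative treatments of the arrays. The 6-month median stays below and the others above the dashed zero line in every row. The alternatives range from -0.34 to -0.08 at 6 months, from 0.08 to 0.34 at 15 months and, over a narrower span, from 0.19 to 0.28 at 22 months.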

How the data were processed

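RNA from a pool of ventricular tissue of each of 6 groups was amplified, labelled with Cy3 and hybridised to 1 Agilent array each. Per the labels, Agilent Feature Extraction (11.0.1.1) made the deposited scanner tables, and the processed signal in them is an intensity already background-subtracted by the authors' software. The authors also deposited a table of log2 values, which correlate with quantile-normalised values of the same arrays, are not centred per gene, and were used as an alternative. From the processed signal, log2 less the 75th percentile of each array was taken, outlier spots were left out, spots of a probe were averaged, and a gene was the mean of its probes flagged well above background (at least 50% of spots) in both pools compared. A member that passed in 1 pool only got a bound against the lowest signal above background. Of 28684 probes with a RefSeq accession, 27234 (94.9%) were named. limma 3.58.1 in R 4.3.3 was run on genes well above background in at least 3 pools, with the Benjamini-Hochberg adjustment and a threshold of 0.05. The gene differences and the limma fits were tested on simulated data, whereas the normalisations and the motif search were not. Named members were the 5 highest and 5 lowest of each age, those past 2-fold, those with a bound past 2-fold and a set of known genes. The members and gene lists were chosen with earlier results of these data known, and 1 gene entered in the list of transcription and DNA upkeep by mistake (Prps1l3) was removed after its values were seen. The number of arrays limits the precision.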

Additional observations from a re-analysis of the deposited data

Results flagged for a closer look

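The members' CR differences pointed opposite ways at different ages. Of the 55 members measured at all ages, 36 lay below the all-gene median at 6 months and above it at 15 and 22 months. The background was 18.4% of the genes measured at all ages. At the level of the whole list this difference between ages was not tested. Differences relative to the all-gene median that had opposite signs at 2 ages and lay at least 2-fold apart were found for 11 members. The share of all genes that meet this rule was not computed. In 10 of the 11 members the gap lies between 6 months and a later age. The limma contrast of these ages takes its error from the 15- and 22-month pools alone and holds none of the young pools. None of these 10 passed limma's contrast of 6 months with the later ages as reported. Mrpl42 did so with quantile normalisation and in the deposited values (adjusted p = 0.0494 and 0.0484 by limma). The CR difference at 15 months was above that at 6 months by 2.02 for Mrpl42, 1.51 for Mrps21, 1.35 for Mrpl55, 1.28 for Mrpl54, 1.04 for Mrpl53 and 1.03 for Mrpl33 on the log2 scale. At 22 months it was above that at 6 months by 1.69 for Mrps16, 1.37 for Mrpl13, 1.17 for Mrpl51 and 1.12 for Mrps12. For Mrps35 the difference at 22 months was above that at 15 months by 1.02, a gap that was not tested.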

How the results depend on the processing

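The direction of the members' median difference and the side of the all-gene median on which most members lay held at each age under all 9 alternative treatments of the arrays. The median difference at 6 months was -0.48 with scaling to the array median, and 7 members were then at least 2-fold lower. This scaling shifts all genes alike, and the relative median stayed at -0.27 with 8 of 55 members above the all-gene median. The shares of all genes that were 2-fold changed under the alternative treatments were not computed. With normexp 13 members lay above the all-gene median at 6 months and 0 were 2-fold changed. Its offset of 50 signal units was larger than the 75th percentiles of processed signal on the young arrays, 29.3 (AL) and 23.1 (CR). Without the filter on dim probes, 8 members were 2-fold changed at 6 months and 1 at 15 months, and Mrpl41 turned from lower to higher at 6 months (0.20). With probes above background on all 6 arrays, 43 of 55 members lay above the median at 15 months. The contrast of young with older mice called 8 members with quantile normalisation and 8 in the deposited values, out of 860 and 669 genes, and it called 13 genes with median scaling, 128 with normexp, 12 with outlier spots kept and 1 with a variance trend, none of them members. The causes of these changes were not tested. The shared effect called 0 genes under every alternative, including without the 6-, 15- or 22-month pools. Each value rests on 1 pool, so the spread between mice is unknown, and the young arrays were dim.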
